A study of Mus musculus with 16 samples.

Results

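The genes described here are the chaperones of the Hsp, Dnaj and CCT families, measured in CD8 T cells before and after activation. They were taken as the non-control array probes whose gene name in the files starts with Hsp followed by a letter or digit of the heat shock families, with Dnaj followed by a, b or c and a number, or with Cct2 to Cct8, or is Tcp1. The rule found 72 genes, with 138 probes, among the 27670 gene names and 41174 probes of the array. Of these genes 68, with 125 probes, were well above background often enough to be tested, and Dnajb7, Hspa12a, Hspb3 and Hspb8 were not. The names of a pair of tested members do not stand for heat shock proteins: Hspc171 is now Tmem208, a membrane protein of the endoplasmic reticulum, and Hspbap1 is a protein named for binding to Hspb1. Chaperones listed under other names, such as Hspbp1 and Hspa13, were not taken by the rule.

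CD8 T cells, which kill infected cells, came from female C57BL/6N mice aged 7 weeks and were sorted as CD8+Thy1.2+ cells. Memory phenotype cells carried much surface CD44 (CD44hi) and naive cells little (CD44lo), and CD44 alone set the 2 fractions apart. Stimulated cells spent 4 h in medium with 10 ng/mL PMA plus 500 ng/mL ionomycin, and resting cells spent 4 h in medium alone. PMA switches on protein kinase C and ionomycin lets calcium in, so no antigen or T cell receptor was involved, and all cells had been through the sort and the culture. The memory stimulated, memory resting, naive stimulated and naive resting groups had 4 arrays each, from 4 independent rounds of sorting and culture according to the design text. The sources used here do not say how many mice went into a sample.

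A level is the log2 signal of a probe minus the 75th percentile of its array, so that 0 is that percentile and each unit is a doubling. A response is the stimulated minus the resting mean, and a gene rose, fell or differed where limma's Benjamini-Hochberg adjusted p was under 0.05. Values on single arrays are given for replicates 1 to 4 in that order. The 75th percentile lay at 484.6 to 669.8 intensity units, 59.3% to 66.5% of spots were well above background, and replicates of a group correlated at 0.978 to 0.995 across probes, which are not independent. Each group was hybridised on a slide of its own and scanned on its own, so the group and the slide cannot be told apart in any comparison. Probe positions are those of mouse build mm7 in the array files, and what part of a gene they lie in was not used here. The CD8 T cell markers Cd8a, Cd8b1, Cd3e and Thy1 were well above background on all 16 arrays. Cd8a fell by 1.33 in memory and by 1.55 in naive cells, Cd3e by 0.78 and by 1.19 and Cd8b1 by 0.39 in naive cells, while Thy1 rose by 0.86 in memory cells. Of 17 listed markers of B cells, CD4 T cells, myeloid cells, NK cells, dendritic cells and erythrocytes, 15 could be tested. Their summed signal, relative to the 75th percentile, was 4.84 to 8.35 on memory stimulated arrays against 15.9 to 24.5 on memory resting arrays, and 2.21 to 4.51 on naive stimulated arrays against 10.3 to 15.9 on naive resting arrays. Among these markers 0 rose and 10 fell in memory cells, where 31.4% of all tested genes were higher and 39.1% lower. In naive cells 2 of these markers rose and 7 fell, where 38.3% of all tested genes were higher and 31.0% lower. Siglech and Alas2 were well above background on 1 of 16 arrays each, and Ncr1 on none of the naive arrays. Their part in the chaperone results was not tested. In such bulk samples, fewer cells of a type and less RNA per cell cannot be told apart.

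Chaperones bind unfolded or newly made proteins and keep them from clumping until they have folded. HSP70 proteins hold short unfolded stretches in cycles of ATP use that J-domain proteins (the Dnaj genes) start and that nucleotide exchange factors of the HSP110 type end, HSP90 proteins finish the folding of kinases and receptors, and the barrel-shaped chaperonins (Hspd1 with its lid Hspe1 in mitochondria, CCT in the cytosol) enclose whole proteins. A T cell that is activated grows, makes more protein and begins to secrete, which are all tasks that draw on these machines. Heat shock factors and the unfolded protein response of the endoplasmic reticulum are the best known routes by which their genes are switched on.

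The large folding machines of the cytosol, the mitochondria and the endoplasmic reticulum rose together after PMA and ionomycin, while J-domain proteins moved both ways. In memory cells 40 of 68 tested chaperone genes rose and 16 fell, where 70.5% of all 18403 tested genes were called, 31.4% higher and 39.1% lower. In naive cells 37 rose and 13 fell, where 69.2% of all genes were called, 38.3% higher and 31.0% lower. The median response of the chaperones was 0.71 in memory cells, against -0.16 over all genes, and 0.79 in naive cells, against 0.15 over all genes. The responses of the 2 cell types use separate arrays. The 9 CCT genes, the HSP90 genes, Hsph1, Hspd1 and Hspe1 all rose in both. A scaling that forces the same distribution on every array lowered these values: with quantile normalization the chaperone median was 0.24 in memory cells, against -0.12 over all genes, and 0.37 in naive cells, against 0.01 over all genes. Under that scaling 32 chaperones rose and 19 fell in memory cells, where 31.1% of all genes were higher and 37.9% lower. In the authors' processed values 32 rose and 21 fell in memory cells, where 30.2% of all genes were higher and 38.3% lower, and 33 rose and 19 fell in naive cells, where 33.3% were higher and 35.4% lower. The chaperone medians in those values were 0.13 in memory cells, against -0.10 over all genes, and 0.22 in naive cells, against -0.01 over all genes. Some machines lost their memory rise both with quantile normalization and in the authors' values. Hsp90b1 gave 0.11 (adjusted p = 0.462) and -0.00 (adjusted p = 0.982), and Hspa8 gave 0.02 in both (adjusted p = 0.87 and 0.842). Hsp90b1 and Cct4 also lost their naive call in the authors' values.

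**Figure D1:**
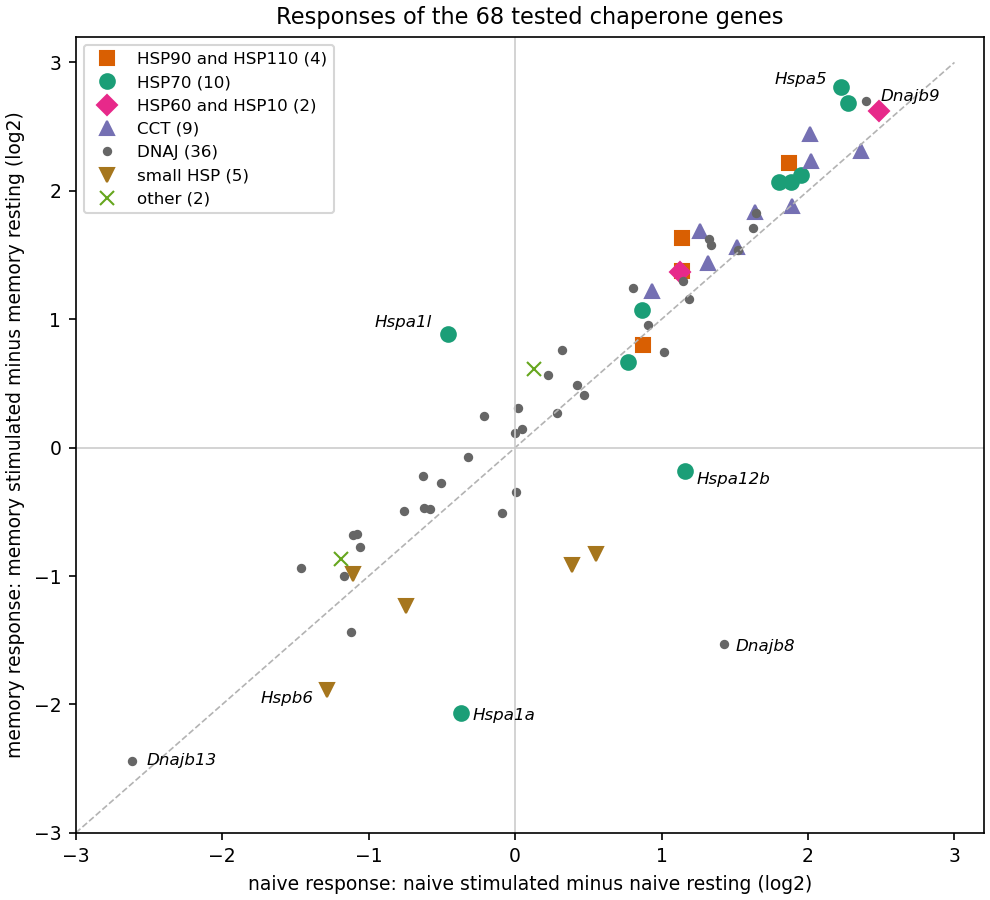
Response to stimulation of the 68 tested chaperone genes, on log2 scales, in memory cells (vertical) against naive cells (horizontal), marked by class with the number of genes in brackets; the dashed line marks equal responses. The CCT genes lie between 0.93 and 2.44 on both axes, while Hspa1a, Dnajb8, Hspa12b and Hspa1l lie far from the line.

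Hsp90aa1, Hsp90ab1, Hsp90b1 and Hsph1 all rose in both cell types. Hsp90aa1 (probe at chr12:108209304-108209363), the stress-inducible cytosolic HSP90, stood at 7.67, 7.72, 7.97 and 7.88 on memory stimulated arrays, against 6.09, 5.98, 6.06 and 6.59 on memory resting arrays. On naive stimulated arrays it stood at 7.65, 7.90, 7.85 and 7.99, against 6.66, 6.67, 6.66 and 6.85 on naive resting arrays. Stimulated and resting arrays did not overlap in either cell type. Its response was 1.63 (SE 0.13, limma adjusted p = 2.96e-08) in memory cells and 1.14 (SE 0.13, adjusted p = 1.81e-06) in naive cells. Hsp90ab1, the constitutive cytosolic HSP90, rose by 1.38 in memory cells and by 1.14 in naive cells (SE 0.11 for both). Hsph1 (chr5:148550005-148550064), the HSP110 that ejects ADP from HSP70, also rose: its mean was 6.84 ± 0.11 on memory stimulated against 4.62 ± 0.15 on memory resting arrays, and 7.13 ± 0.19 on naive stimulated against 5.26 ± 0.34 on naive resting arrays (SD, n = 4). That is 4.65-fold in memory and 3.66-fold in naive cells. Hsp90b1, the HSP90 of the endoplasmic reticulum, rose by 0.80 in memory cells and 0.87 in naive cells (SE 0.14). The call for Hsp90b1 depended on the scaling: its memory response was 0.11 (adjusted p = 0.462) with quantile normalization and -0.00 (adjusted p = 0.982) in the authors' table, and its naive response in that table was 0.19 (adjusted p = 0.213).

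**Figure D2:**
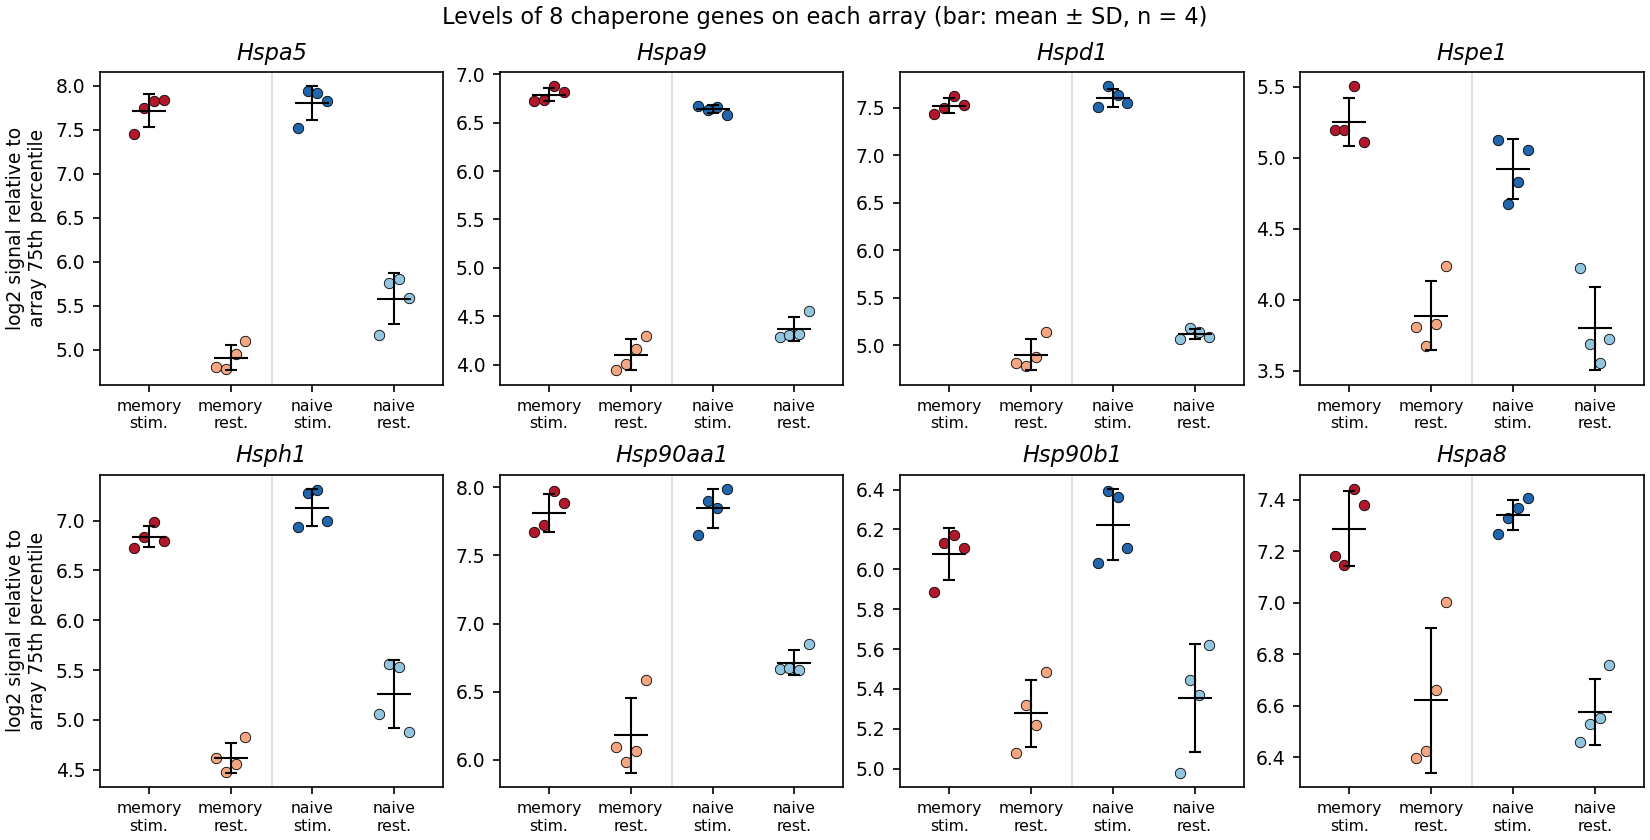
Level of 8 chaperone genes on each array (log2, 0 at the 75th percentile of the array), with stimulated left of resting arrays for memory and for naive cells; dots are single arrays and bars are mean ± SD (n = 4 a group). For each gene the stimulated arrays lie above the resting arrays of the same cell type, by 2.81 for Hspa5 and by 0.67 for Hspa8 in memory cells.

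Of the 10 tested Hspa genes, grouped here as HSP70 by name, 8 rose and 1 fell in memory cells, and 8 rose and 0 fell in naive cells. The steepest rises belonged to the HSP70 of the endoplasmic reticulum and the HSP70 of mitochondria. Hspa5 (BiP, probe at chr2:34783421-34783480), which folds proteins entering the secretory pathway, stood at 7.45, 7.75, 7.83 and 7.84 on memory stimulated arrays, against 4.81, 4.78, 4.96 and 5.10 on memory resting arrays. On naive stimulated arrays it stood at 7.52, 7.94, 7.91 and 7.83, against 5.17, 5.75, 5.80 and 5.58 on naive resting arrays. The stimulated values of the 2 cell types overlapped and the resting values did not, with memory cells lower. The response was 7.01-fold in memory cells (log2 2.81, SE 0.15, adjusted p = 2.69e-10) and 4.67-fold in naive cells (log2 2.22, SE 0.15, adjusted p = 3.84e-09), and the difference between the responses was 0.59 (SE 0.21, adjusted p = 0.0686). That difference missed the threshold here and passed it in the authors' table (0.59, adjusted p = 0.0405), with a normexp background correction whose low differences were floored, added after the data were seen (0.72, adjusted p = 0.0203), and without memory stimulated replicate 1 (0.67, adjusted p = 0.043) or naive resting replicate 1 (0.72, adjusted p = 0.0117). Hspa9 (mortalin), which pulls proteins into mitochondria, rose 6.44-fold in memory and 4.83-fold in naive cells. Its 4 memory stimulated arrays lay at 6.73 to 6.87 and its 4 memory resting arrays at 3.94 to 4.30, and its naive stimulated arrays lay at 6.58 to 6.67 against 4.28 to 4.55 on naive resting arrays. The difference between these responses was 0.42 (SE 0.14, adjusted p = 0.0527), and it passed the threshold with the floored normexp correction (adjusted p = 0.0452) and without memory resting replicate 4 (adjusted p = 0.0245) or naive resting replicate 1 (adjusted p = 0.0405).

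The HSP70-like exchange factors Hspa4 and Hspa4l rose by 2.07 and 2.12 in memory cells and by 1.80 and 1.95 in naive cells. Hspa2, best known from the testis, rose by 2.07 in memory and 1.88 in naive cells (SE 0.19). Hspa14, which joins the J-domain protein Dnajc2 on the ribosome, rose by 1.07 in memory and 0.86 in naive cells (SE 0.10). Hspa8, the constitutive cytosolic HSP70, rose by 0.67 in memory and 0.77 in naive cells (SE 0.13), and its memory response was 0.02 both with quantile normalization (adjusted p = 0.87) and in the authors' table (adjusted p = 0.842). The second, dimmer Hspa8 probe rose by 1.29 in memory and 1.08 in naive cells. The naive response of Hspa14 was 0.11 (adjusted p = 0.18) in that table. The files place the Hspa8 probes on chromosome 5 of mouse build mm7, while the reference lists the gene on chromosome 9, so their gene is less sure than the others.

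Hspa5, Hsp90b1 and Dnajc3 shared a sequence feature. Promoter windows of 250 bases before the transcription start (RefSeq, build GRCm38.p6) were available for 59 member genes, in 78 windows, and were searched on both strands for the ER stress response element, CCAAT and CCACG with 9 bases of any kind between them. It was found in 37 of all 32851 windows (0.113%), and in 3 of the 78 member windows. The 3 promoters are shown because their genes moved in different directions, with the element in capitals.
Hspa5, chr2:34771840-34772089, plus strand: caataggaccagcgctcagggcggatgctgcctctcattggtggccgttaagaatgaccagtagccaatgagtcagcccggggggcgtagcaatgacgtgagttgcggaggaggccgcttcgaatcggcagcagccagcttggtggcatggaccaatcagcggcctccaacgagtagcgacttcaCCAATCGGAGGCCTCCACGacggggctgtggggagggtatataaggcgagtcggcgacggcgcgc
Hsp90b1, chr10:86705445-86705694, minus strand: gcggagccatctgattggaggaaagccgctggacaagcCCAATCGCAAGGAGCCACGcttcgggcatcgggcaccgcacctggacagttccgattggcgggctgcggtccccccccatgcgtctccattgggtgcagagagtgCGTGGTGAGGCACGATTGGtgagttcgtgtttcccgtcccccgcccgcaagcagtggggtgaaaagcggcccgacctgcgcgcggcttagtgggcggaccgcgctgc
Dnajc3, chr14:118937682-118937931, plus strand: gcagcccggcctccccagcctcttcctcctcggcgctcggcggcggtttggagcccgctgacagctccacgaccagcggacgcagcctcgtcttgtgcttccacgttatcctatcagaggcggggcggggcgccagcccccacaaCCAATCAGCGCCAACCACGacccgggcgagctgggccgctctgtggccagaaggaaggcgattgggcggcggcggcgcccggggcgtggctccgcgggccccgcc
The Hspa5 window holds 1 match, the Hsp90b1 window 2 and the Dnajc3 window 1. Hspa5 and Hsp90b1 rose, as given above. Dnajc3, an HSP70 partner in the endoplasmic reticulum, fell by 0.49 in memory cells (SE 0.10, adjusted p = 0.000621) and by 0.76 in naive cells (SE 0.10, adjusted p = 9.6e-06). All 4 Dnajc3 probes fell in naive cells, and 3 of them in memory cells. A match is a description of the letters, and whether a factor binds there was not measured.

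Hspd1 (HSP60, probe at chr1:55325295-55325354), the mitochondrial chaperonin, and Hspe1 (HSP10, chr1:55338388-55338447), its lid, both rose. Hspd1 stood at 7.43, 7.5, 7.62 and 7.52 on memory stimulated arrays, against 4.81, 4.78, 4.87 and 5.14 on memory resting arrays. Naive stimulated arrays gave 7.51, 7.72, 7.64 and 7.55 for Hspd1, against 5.06, 5.18, 5.13 and 5.09 on naive resting arrays. The groups lay more than 2 units apart, with an SD of at most 0.16 within a group. The response of Hspd1 was 2.62 in memory cells (SE 0.10, adjusted p = 7.11e-12) and 2.49 in naive cells (SE 0.10, adjusted p = 1.26e-11). Hspe1 lay at 5.11 to 5.50 on memory stimulated against 3.67 to 4.24 on memory resting arrays, and at 4.67 to 5.13 on naive stimulated against 3.55 to 4.23 on naive resting arrays. The response of Hspe1 was 1.36 in memory cells (SE 0.17, adjusted p = 2.54e-06) and 1.12 in naive cells (SE 0.17, adjusted p = 2.05e-05). The 2 genes lie head to head on chromosome 1, and the 215 bases between their start sites hold 2 overlapping matches to the heat shock element, TTC, GAA and TTC with 2 bases of any kind between neighbours, marked in capitals. They are shown as the shared upstream sequence of a pair that rose together.
Hspd1 and Hspe1, GRCm38.p6 chr1:55087933-55088147, read on the strand of Hspe1: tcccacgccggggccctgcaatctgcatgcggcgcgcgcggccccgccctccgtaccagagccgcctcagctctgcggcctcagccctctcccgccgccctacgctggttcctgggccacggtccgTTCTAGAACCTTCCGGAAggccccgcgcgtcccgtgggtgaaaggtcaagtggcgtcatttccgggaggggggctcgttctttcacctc
This element was found on either strand in 153 of all 32851 windows (0.466%) and among members in the windows of Dnajb6, Hspd1 and Hspe1. Members with no window in the table were not searched.

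All 9 tested genes of CCT, the cytosolic chaperonin that folds actin and tubulin, rose in both cell types. The median response was 1.83 in memory cells, with a range of 1.22 to 2.44, and 1.64 in naive cells, with a range of 0.93 to 2.36. Cct6b, the second version of the sixth subunit that is best known from the testis, stood at 5.19, 5.19, 5.20 and 5.24 on memory stimulated arrays, against 2.59, 2.68, 2.79 and 2.98 on memory resting arrays. On naive stimulated arrays Cct6b stood at 5.23, 5.07, 5.09 and 5.01, against 2.77, 3.08, 3.05 and 3.46 on naive resting arrays. Cct6a, the widely expressed version, lay at 3.36 to 3.68 on memory stimulated arrays against 1.18 to 1.41 on memory resting arrays, and at 3.51 to 3.82 on naive stimulated arrays against 0.73 to 1.77 on naive resting arrays. In none of the 9 genes did stimulated arrays overlap with resting arrays of the same cell type. The response ran from 1.22 (SE 0.11) for Cct4 to 2.44 (SE 0.13) for Cct6b in memory cells. After stimulation the memory minus naive difference of the 9 genes ran from -0.27 to 0.12 and 0 of 9 passed the threshold in the limma fit, with 0 of 9 at an unadjusted p under 0.05. With quantile normalization the 9 genes also rose, with medians of 1.16 in memory and 1.13 in naive cells. In the authors' table the naive response of Cct4 was 0.20 and missed the threshold (adjusted p = 0.102), and the other CCT genes rose.

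**Figure D3:**
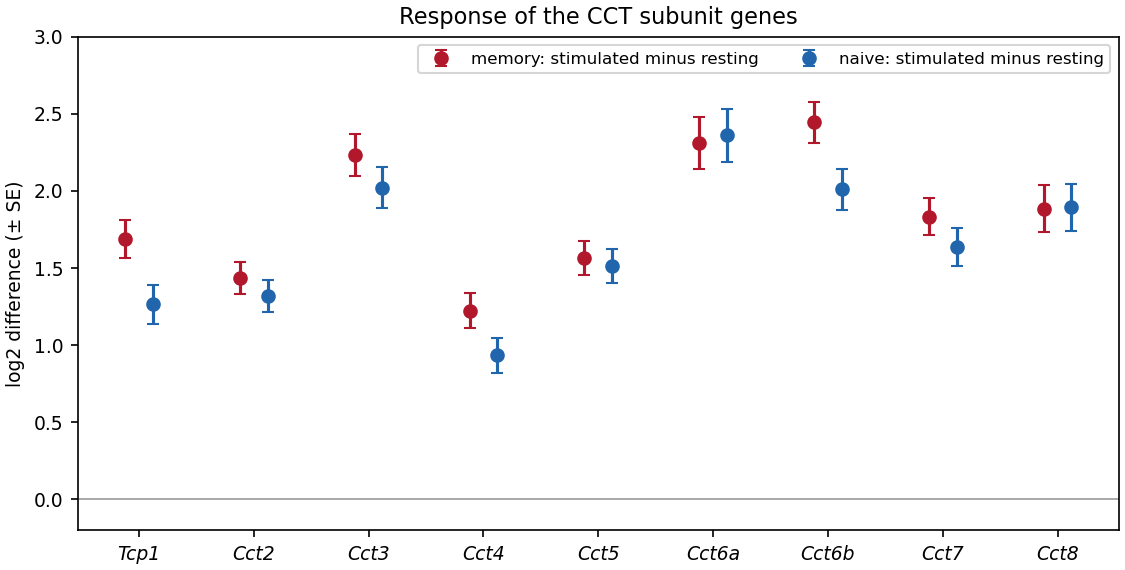
Response to stimulation (log2, ± SE from the fit) of the 9 CCT subunit genes in memory cells (red) and naive cells (blue). Each response lies above 0, lowest for Cct4 in naive cells (0.93) and highest for Cct6b in memory cells (2.44).

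The J-domain proteins, which hand clients to HSP70, moved in both directions. Of 36 tested Dnaj genes, 16 rose and 10 fell in memory cells and 13 rose and 10 fell in naive cells, and the naive counts are near the background of all genes given above. With quantile normalization 11 rose and 14 fell in memory cells, where 31.1% of all genes were higher and 37.9% lower. In the authors' processed values 11 rose and 16 fell in memory cells, where 30.2% were higher and 38.3% lower. In naive cells those values gave 12 rises and 15 falls, where 33.3% were higher and 35.4% lower. These counts are near the shares of all genes, so the larger number of rises in memory cells depended on the scaling. Dnajb9 (ERdj4, probe at chr12:42082310-42082369), a partner of BiP in the endoplasmic reticulum, rose furthest in both, by 2.70 in memory cells (SE 0.26, adjusted p = 1.65e-07) and by 2.39 in naive cells (SE 0.26, adjusted p = 6.48e-07). It stood at 2.75, 3.62, 3.71 and 3.84 on memory stimulated arrays against 0.57, 0.69, 0.78 and 1.08 on memory resting arrays, and at 2.94, 3.85, 4.00 and 3.94 on naive stimulated arrays against 0.92, 1.41, 1.37 and 1.46 on naive resting arrays. Replicate 1 was the lowest array of each group for Dnajb9, and the stimulated arrays still lay above all resting arrays. Its 3 probes rose alike.

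Among the other large rises, Dnajc1, a J protein of the endoplasmic reticulum membrane, rose by 1.71 in memory and 1.63 in naive cells (SE 0.14). Dnaja2, a main cytosolic partner of HSP70, rose by 1.58 in memory and 1.33 in naive cells (SE 0.17). Dnajc2, the ribosome-bound partner of Hspa14, rose by 1.63 in memory and 1.32 in naive cells (SE 0.12), and Dnajc11, a mitochondrial membrane protein, by 1.54 and 1.53 (SE 0.16). Dnajb3, a testis J protein by its known expression, rose by 1.83 in memory and 1.65 in naive cells (SE 0.21) at low levels of -2.94 to -1.83 on the stimulated arrays. Dnajc15 (MCJ), which restrains complex I of the respiratory chain, fell by 1.0 in memory cells and by 1.17 in naive cells (SE 0.12). Its 4 memory stimulated arrays lay at 4.72 to 4.97 against 5.56 to 6.02 at rest in memory cells, and its naive stimulated arrays at 4.49 to 4.93 against 5.84 to 5.94 at rest in naive cells. Dnajc14, which helps receptors leave the endoplasmic reticulum, fell by 0.94 in memory and by 1.46 in naive cells (SE 0.20). Dnaja4 fell by 1.44 and by 1.12 (SE 0.29) on its brighter probe, while its second probe had responses of -0.02 and 0.29 and passed no test. Dnajb13, a part of the sperm tail axoneme, was not well above background on any stimulated array, so only bounds can be given: it was at least 4.46-fold lower in memory stimulated than memory resting cells (adjusted p = 5.11e-07) and at least 2.42-fold lower in naive stimulated than naive resting cells (adjusted p = 2.35e-07). Each bound takes the bright group's mean over the dim group's mean, with each dim array raised to its lowest signal well above background where the probe lay below that. With the normexp background correction the Dnajb13 responses turned to 0.90 in memory and 0.16 in naive cells. That fit was upset by spots of bright local background, and with the floored version both falls kept their direction and call.

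Some genes had probes that moved apart. Of 36 member genes with several tested probes, Dnajc19 had probes called in opposite directions in both cell types and Dnajb6 in memory cells. The brightest Dnajc19 probe rose by 0.96 in memory and 0.91 in naive cells, and its dimmest fell by 0.66 and by 0.68. The brightest Dnajb6 probe rose by 0.75 in memory cells, where another fell by 0.36. Which transcript each probe reads was not used here.

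Small heat shock proteins, which hold unfolded proteins without using ATP, were dim in these cells. Of the 5 tested genes, 0 rose and 4 fell in memory cells, where 31.4% of all genes were higher and 39.1% lower. In naive cells 1 rose and 2 fell, where 38.3% of all genes were higher and 31.0% lower. Whether so few genes differ from those shares was not tested. The naive rise was that of Hspb9 (0.39, adjusted p = 0.0395), a call lost without naive resting replicate 2 or 3 or any 1 of the 4 naive stimulated arrays (0.24 to 0.42, adjusted p 0.0508 to 0.154), and in a fit on the naive groups alone (adjusted p = 0.0958). Hspb2, a muscle form, was at least 2.20-fold lower in memory stimulated than memory resting cells (adjusted p = 6.15e-07). Hspb6 was at least 1.66-fold lower in memory stimulated than memory resting cells (adjusted p = 0.00019) and at least 1.81-fold lower in naive stimulated than naive resting cells (adjusted p = 0.00416). These falls depended on the background correction. With the normexp correction the memory responses were 1.20 for Hspb2, 1.24 for Hspb6 and 0.61 for Hspb9, and the floored version of it left 0.00 for Hspb2 and 0.02 for Hspb6. With that version 0 of the 5 genes rose and 1 fell in memory cells, where 38.3% of all genes were higher and 27.4% lower, and 1 rose and 0 fell in naive cells, where 39.0% were higher and 27.1% lower. Hspb1 (HSP25), the most studied of the family, missed the threshold in both cell types (memory -0.99, SE 0.50, adjusted p = 0.0875; naive -1.11, SE 0.50, adjusted p = 0.0583).

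Hspa1a, the classic HSP70 induced by heat shock, was the 1 HSP70 gene that fell in memory cells. It stood at 1.96, 1.55, 1.98 and 2.08 on memory stimulated arrays, against 5.0, 3.26, 3.94 and 3.65 on memory resting arrays. On naive stimulated arrays it stood at 2.44, 5.62, 5.87 and 2.79, against 6.26, 4.78, 4.56 and 2.60 on naive resting arrays. The memory groups did not overlap, and the naive groups overlapped over nearly their whole range. The SD was 0.23 in memory stimulated and 0.74 in memory resting cells, and 1.82 in naive stimulated and 1.5 in naive resting cells, against at most 0.29 for Hspa5. The fit shares its spread over all groups, so the wide naive groups also enter the SE of the memory response. Hspa1a fell in memory cells by 2.07 (SE 0.79, adjusted p = 0.0294), while its naive response was -0.37 (SE 0.79, adjusted p = 0.692), and the difference between the responses was not past the threshold (-1.70, SE 1.12, adjusted p = 0.317). It was 4.88-fold lower in memory stimulated than naive stimulated cells (adjusted p = 0.0478), a call that no fit of its probes one by one gave. That call was lost in 12 of 16 fits that left out 1 array (adjusted p 0.0503 to 0.149) and was kept without naive resting replicate 1 or 4 or naive stimulated replicate 1 or 4. The fall in memory cells was lost without memory resting replicate 1 or 3 or memory stimulated replicate 2 (adjusted p 0.0501 to 0.0879).

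The spread of Hspa1a was not that of 1 probe. Its 4 probes gave the same order of high and low arrays among the naive groups, with replicates 2 and 3 high and 1 and 4 low among naive stimulated arrays, and replicate 1 highest and 4 lowest among naive resting arrays. The 2 dimmer probes also list the accession of the neighbouring copy Hspa1b, so signal from the 2 genes cannot be told apart there; they are shown for that reason, from the array files, on the minus strand of mm7 chromosome 17.
Hspa1a probe at chr17:33068671-33068730: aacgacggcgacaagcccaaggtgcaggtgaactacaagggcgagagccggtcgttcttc
Hspa1a probe at chr17:33067263-33067322: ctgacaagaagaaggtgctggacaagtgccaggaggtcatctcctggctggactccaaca
Among naive stimulated arrays the same replicates were high for Dnajb1, the J protein that works with Hspa1a. It stood at 5.52, 6.01, 6.07 and 5.58 there and did not pass the test in either response (memory 0.14, adjusted p = 0.324; naive 0.05, adjusted p = 0.751). Hspb1 stood at -3.85, -3.05, -2.82 and -3.57 on naive stimulated arrays and at -0.59, -2.47, -2.46 and -3.33 on naive resting arrays, with replicates 2 and 3 high when stimulated and 1 highest and 4 lowest at rest. Hsp90aa1 did not share this order: in both naive groups it was highest on replicate 4, by the values given above. What these arrays have in common was not tested.

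**Figure D4:**
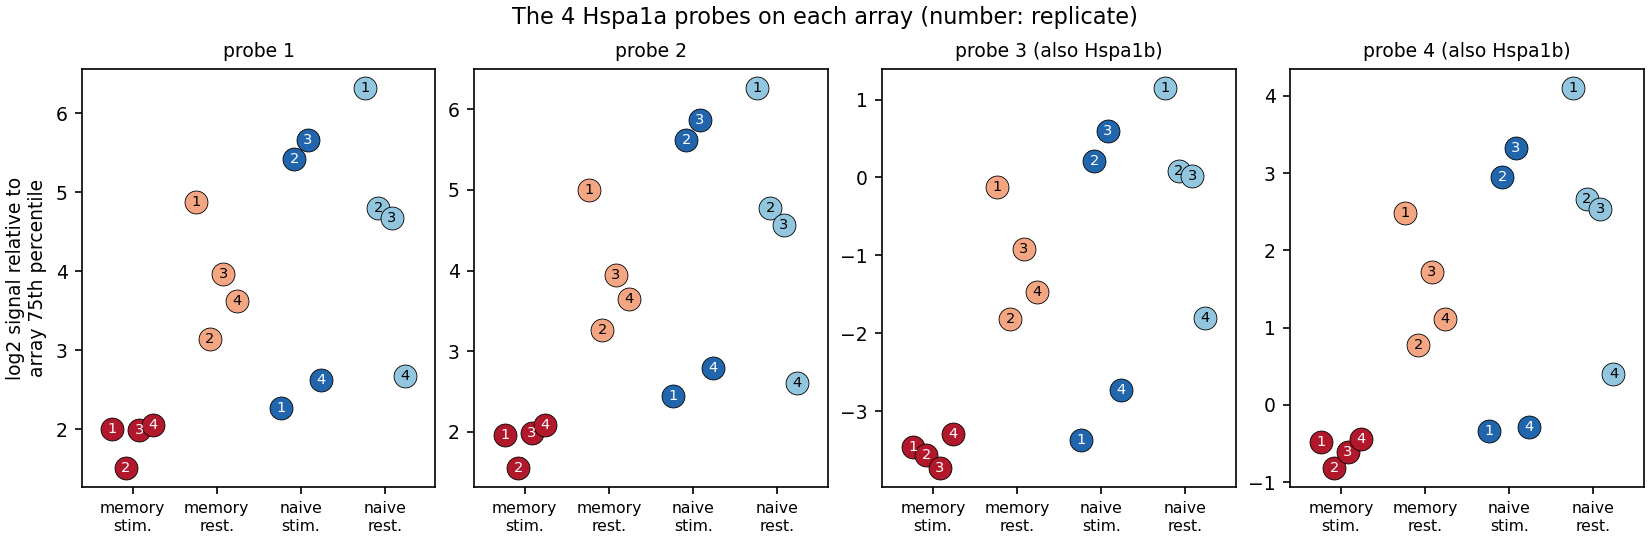
Level of the 4 Hspa1a probes on each array (log2, 0 at the 75th percentile of the array; numbers are replicates), with stimulated left of resting arrays. Memory stimulated arrays form a tight low group for each probe, while naive arrays of both conditions spread over several units, on the brightest probe between 2.44 and 5.87 when stimulated and between 2.60 and 6.26 at rest.

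At rest, memory cells had lower levels of several chaperones than naive cells. Of 68 genes, 11 were lower and 3 higher in memory resting than naive resting cells, where 21.5% of all genes differed, 7.66% lower and 13.9% higher. With quantile normalization 11 were lower and 1 higher, where 9.07% of all genes were lower and 11.7% higher. Hsp90aa1 differed by -0.53 (SE 0.13, adjusted p = 0.0103), Hsph1 by -0.64 (SE 0.16, adjusted p = 0.00859) and Hspa5 by -0.67 (SE 0.15, adjusted p = 0.00553). Among genes well above background on all 16 arrays, Hspa4l (probe at chr3:40556164-40556223) had the largest difference, -1.11 (SE 0.25, adjusted p = 0.00458), or 2.16-fold lower. It stood at 0.69, 0.66, 0.72 and 1.02 on memory resting arrays, against 1.81, 1.87, 1.74 and 2.12 on naive resting arrays, with no overlap. After stimulation Hspa4l was still 1.92-fold lower, at 2.13, 2.96, 3.06 and 3.44 on memory stimulated arrays against 3.2, 3.99, 4.00 and 4.17 on naive stimulated arrays (-0.94, SE 0.25, adjusted p = 0.0116), although 1 memory array reached above the lowest naive array. All 4 Hspa4l probes were lower in memory cells both at rest and after stimulation. The stimulated call was lost in a fit on the stimulated groups alone (adjusted p = 0.0544). Hspa2 differed by -0.70 (SE 0.19, adjusted p = 0.0146) at rest, a call lost without naive resting replicate 2.

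Dnajc6 (auxilin), which strips clathrin from vesicles and is best known from nerve cells, was dim and had the largest resting difference, -1.93 (SE 0.56, adjusted p = 0.0231). It lay at -5.67 to -5.25 on memory resting arrays against -3.81 to -3.31 on naive resting arrays, and the call was lost without memory resting replicate 1 or 3 or naive resting replicate 3. Memory stimulated replicate 2 stood at -3.67 and was the only array of its group on which Dnajc6 was well above background, so no size is given for its stimulated difference or memory response. Neither passed the threshold (adjusted p = 0.0644 and 0.286), and both did without that array, where only values not well above background were left. Dnajc9, a chaperone of histones that dividing cells use, differed by -0.51 at rest (SE 0.10, adjusted p = 0.0018) and by -0.40 after stimulation (SE 0.10, adjusted p = 0.00806). Its second, dimmer probe gave -0.18 at rest (adjusted p = 0.328) and -0.64 after stimulation (adjusted p = 0.00154). The other genes lower at rest in memory cells were Dnaja1, Dnajb1, Hspbap1 and Tcp1, at -0.58 to -0.44. With every probe fitted on its own, no Dnaja1 probe passed at rest (-0.47, -0.41 and 0.10, adjusted p = 0.0537, 0.102 and 0.702). Dnajb1 and Tcp1 then passed on some of their probes only, and the second Dnajb1 probe gave -0.43 (adjusted p = 0.106). The Tcp1 call was lost without memory resting replicate 1 or 2 or naive resting replicate 4. Dnajb13, Hspb9 and Hspa12b, all of them dim, were higher in memory cells by 0.93, 0.64 and 0.62. The Dnajb13 call was lost without naive resting replicate 2 or 3 and that of Hspa12b in 8 of 16 such fits. With the floored normexp correction 13 chaperones were lower and 0 higher, where 10.4% of all genes were lower and 9.53% higher. Leaving out replicate 1 of the memory resting arrays, or replicate 2 of the naive resting arrays, took the number of chaperones that differed at rest to 9 in place of 14. Of the 15 tested markers of other cells, 4 were higher and 0 lower in memory resting than naive resting cells. Of all genes 13.9% were higher and 7.66% lower there, and the part of these markers was not tested.

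In memory stimulated against naive stimulated cells 3 chaperones were higher and 8 lower, where 24.2% of all genes differed, 10.1% higher and 14.1% lower. None of the HSP90 and CCT genes, Hsph1, Hspd1 or Hspe1 passed the threshold, although Hspd1 was lower in the authors' table (-0.25, adjusted p = 0.0291). The differences of Hspa5, Hsp90aa1 and Hsph1 were -0.08 (SE 0.15, adjusted p = 0.739), -0.03 (SE 0.13, adjusted p = 0.875) and -0.29 (SE 0.16, adjusted p = 0.189). Whether the resting and stimulated differences of these genes differ is the interaction test. It gave 0.50 (adjusted p = 0.0787) for Hsp90aa1, which passed without memory resting replicate 4 (0.63, adjusted p = 0.0105), and 0.34 (adjusted p = 0.303) for Hsph1, while the Hspa5 result depended on the setting, as given above. Besides Hspa1a and Hspa4l, the genes lower in memory stimulated cells were Dnajb8, Dnajb4, Hspb2, Hspa12b, Hspb9 and Dnajc9. The Hspa12b call was lost without memory stimulated replicate 2 (adjusted p = 0.064). Dnajb4, a cytosolic J protein of heart and muscle, stood at 0.20, 0.76, 0.56 and 1.04 on memory stimulated arrays against 0.91, 1.83, 1.88 and 1.68 on naive stimulated arrays (-0.93, SE 0.20, adjusted p = 0.00347). The ranges of Dnajb4 overlapped by 1 array. Dnajc16 and Tmem208 were higher, by 0.50 and 0.46, and so was Dnajb13, which was not well above background in either stimulated group and so has no fold. With every probe fitted on its own, Dnajc16 passed on its brightest probe only (0.50, adjusted p = 0.0173). Its other probes gave 0.22, 0.34 and 0.20 (adjusted p = 0.465, 0.138 and 0.318). Dnajb4 then also passed on some of its probes only.

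**Figure D5:**
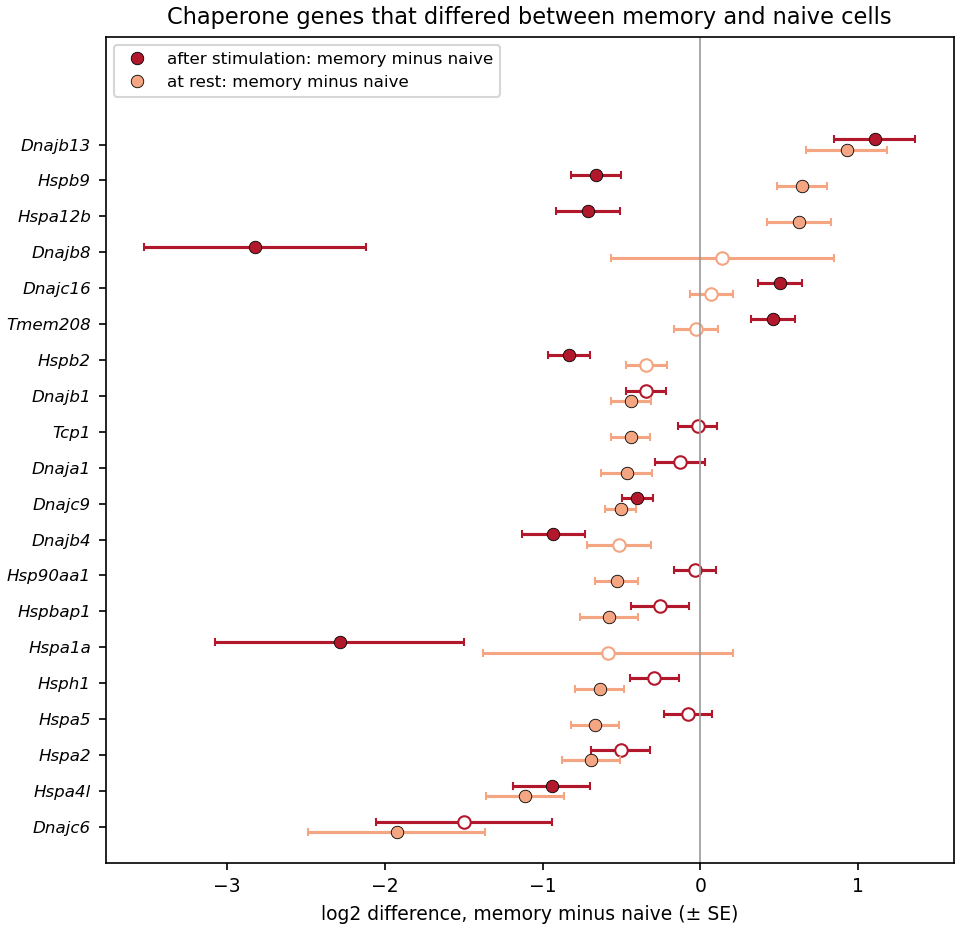
Memory minus naive difference (log2, ± SE) of the 20 chaperone genes that differed at rest or after stimulation, with stimulated cells in dark red above resting cells in light red; filled points passed the threshold. Hspa4l and Dnajc9 lie left of 0 in both conditions, and Hspb9 and Hspa12b lie on opposite sides.

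The response itself differed between memory and naive cells for 4 chaperones, 1 with a higher and 3 with a lower memory response, where 20.0% of all genes had such a difference, 5.90% higher and 14.1% lower. In the authors' table the counts were 2 and 3, where 9.11% of all genes were higher and 10.7% lower, and without naive resting replicate 1 the total was 7. Of the 15 tested markers of other cells, 0 had a higher and 2 a lower memory response, the erythrocyte gene Hba-a1 (-1.87, adjusted p = 8.34e-05) and the B cell gene Ms4a1 (-1.29, adjusted p = 0.0177). Like Hspb9, Hba-a1 was higher in memory resting than naive resting cells, fell in memory cells and rose in naive cells, and the part of these markers was not tested. Hspb9, a testis form of the small heat shock proteins, fell in memory cells, at -3.52, -3.17, -3.53 and -3.48 on memory stimulated against -2.51, -2.66, -2.52 and -2.36 on memory resting arrays. On naive stimulated arrays it stood at -2.79, -2.65, -2.85 and -2.78, against -2.73, -3.61, -3.29 and -3.0 on naive resting arrays, which overlapped. The difference of the responses was -1.30 (SE 0.22, adjusted p = 0.000828). Hspa12b, a distant HSP70 relative of blood vessel cells, rose by 1.16 in naive cells (SE 0.20, adjusted p = 0.00011) and had a memory response of -0.18 (adjusted p = 0.435), a difference of -1.34 (SE 0.29, adjusted p = 0.00401). Hspa1l, a testis HSP70 next to Hspa1a, rose by 0.89 in memory cells (SE 0.25, adjusted p = 0.0056) and had a naive response of -0.46 (adjusted p = 0.119), a difference of 1.35 (SE 0.36, adjusted p = 0.0151). These 3 genes were dim, below -2 on all arrays, and with the floored normexp correction the difference was -0.27 (adjusted p = 0.226) for Hspa12b and 0.38 (adjusted p = 0.0743) for Hspa1l.

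Dnajb8, a testis J protein that holds back protein aggregation, had the largest such difference, -2.96 (SE 1.0, adjusted p = 0.0484), with a wide spread. It stood at -0.78, -0.46, -0.70 and 0.06 on memory stimulated arrays, against 0.60, 1.31, -0.21 and 2.55 on memory resting arrays. On naive stimulated arrays it stood at 1.48, 2.69, 2.18 and 3.04, against -1.12, 1.14, 0.66 and 3.02 on naive resting arrays. Stimulated and resting arrays overlapped in both cell types. The memory response was -1.53 (adjusted p = 0.0635) and passed in a fit on the memory groups alone (adjusted p = 0.023) and without memory resting replicate 3 (-1.96, adjusted p = 0.0274), naive resting replicate 1 or naive resting replicate 4. The naive response was 1.43 (adjusted p = 0.0836) and passed without naive resting replicate 4 (2.12, adjusted p = 0.0068). The memory stimulated arrays lay below all naive stimulated arrays (-2.82, SE 0.70, adjusted p = 0.00897). The difference of the responses was past the threshold in 3 of the 16 fits that left out 1 array (without memory resting replicate 3, naive resting replicate 4 or naive stimulated replicate 1), and adjusted p was 0.0526 to 0.0932 in the other 13.

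Partners of these chaperones were read from the same fit. There 31.4% of all genes rose and 39.1% fell in memory cells, and 38.3% rose and 31.0% fell in naive cells. Of 31 co-chaperone and prefoldin genes, 21 rose and 1 fell in memory cells, and 21 rose and 4 fell in naive cells. Ppid, a prolyl isomerase that docks on HSP90, rose by 2.91 in memory and 2.76 in naive cells (SE 0.13), with 4 memory stimulated arrays at 6.87 to 7.37 against 3.93 to 4.46 on memory resting arrays. Ppp5c, an HSP90-bound phosphatase, rose by 1.28 in memory and 2.92 in naive cells (SE 0.12) on its brighter probe, which put the responses 1.65 apart (adjusted p = 6.29e-06), but its second probe rose by 2.03 in memory and 1.45 in naive cells. Bag2, a co-chaperone of HSP70, rose by 2.51 in memory and 1.93 in naive cells (SE 0.26). Sugt1, an HSP90 adaptor, fell by 0.65 in memory and by 1.24 in naive cells (SE 0.14).

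Of 25 ER folding genes, 14 rose and 3 fell in memory cells, and 13 rose and 4 fell in naive cells. The shares of all genes are those given above for the partners. Atf6, the membrane-bound sensor that is cut to a transcription factor when proteins misfold in the endoplasmic reticulum, had the largest response. It stood at 3.49, 3.62, 3.69 and 3.48 on memory stimulated arrays against 0.61, 0.16, 0.20 and 0.26 on memory resting arrays, and at 2.91, 3.06, 3.08 and 2.82 on naive stimulated arrays against -0.77, -0.89, -0.95 and -0.74 on naive resting arrays. Its second probe rose by 3.41 in memory and 4.09 in naive cells. Ero1a, the oxidase that drives disulfide formation, rose by 2.57 in memory and 2.25 in naive cells (SE 0.13). Ddit3 (CHOP), the factor tied to death under lasting stress of the endoplasmic reticulum, fell by 1.70 in memory and by 1.41 in naive cells (SE 0.22). Edem1, which sends misfolded glycoproteins to degradation, fell by 0.48 in memory and by 0.40 in naive cells (SE 0.09). Xbp1 fell by 0.61 in naive cells (SE 0.18) and had a memory response of -0.06 (adjusted p = 0.775). Xbp1 is turned on by splicing of its RNA, which these probes did not measure.

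Of 17 tested genes of the heat shock factors and of mitochondrial protein quality, 15 rose and 1 fell in each cell type. The same shares of all genes apply. Pitrm1, a peptidase that clears cut-off import signals, rose by 1.98 in memory and 1.96 in naive cells (SE 0.14). Lonp1, the main protease of the mitochondrial matrix, rose by 2.04 in memory and 1.47 in naive cells (SE 0.11). Grpel1, the exchange factor of Hspa9, rose by 1.55 in memory and 1.59 in naive cells (SE 0.13). Htra2, a mitochondrial serine protease, fell by 0.63 in naive cells (SE 0.15). The gene that fell in memory cells was Hsf1, the master heat shock factor, by 0.81 on its brightest probe, but its other 2 probes rose by 1.32 and 1.60 in memory cells and by 1.21 and 1.22 in naive cells, so no direction can be given for Hsf1 in memory cells. The lists of partners were put together with earlier results of these arrays known.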

How the data were processed

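The deposited files hold the intensity of each spot of 16 one-colour Agilent arrays with 60-base probes, extracted with Agilent Feature Extraction 9.5.3.1 and background-subtracted and detrended within each array, per the file headers. The authors also deposited a table of processed intensity values, with no statement of its normalization in these sources; its 33797 rows correlated with the processed signals at 0.987 or more on each array. Here the log2 processed signal minus the array's 75th percentile was used, spots of a probe were averaged, and control spots and outlier-flagged spots (59 to 116 an array) were left out. Tests took probes well above background on 3 or more of a group's 4 arrays (27348 probes), and a gene was read from its tested probe with the highest mean (18403 genes). The number of arrays limits the precision. Gene names were updated through RefSeq for 32719 probes, and the other 8455 keep their file name.

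The 5 comparisons came from one limma fit on all 16 arrays (R 4.3.3, limma 3.58.1), with Benjamini-Hochberg adjusted p over all genes, and the fit was tested on simulated data. Tables were made with pandas 2.3.3 and numpy 2.4.6 under Python 3.11.15, and plots with matplotlib 3.10.9. The text names the HSP90, HSP110, HSP70, CCT, Hspd1 and Hspe1 genes, the 5 largest rises and falls of Dnaj and small heat shock protein genes in each response, the 5 largest differences in each other comparison, and the 2 largest rises and falls of each list of partners. Other genes named (Dnajc3, Dnajc19, Dnajb1, Hspb1, Dnajc16, Tmem208 and further resting or stimulated differences among them) were chosen after their values were seen. The members and lists were chosen with earlier results of these data known. Replicate numbers come from the sample titles and equal the position in the array barcode. Same-numbered deviations correlated at 0.302 to 0.585 between memory resting and naive resting arrays. Between memory stimulated and naive stimulated arrays they correlated at 0.054 to 0.488. Both naive groups gave 0.044 to 0.286, and naive stimulated with memory resting arrays 0.020 to 0.200. Memory stimulated arrays gave -0.086 to 0.345 with memory resting and -0.21 to 0.167 with naive resting arrays. The alternatives were quantile normalization, the authors' values, normexp with an offset of 50, other filters, every probe on its own, fits on the compared groups alone, the replicate number as a block, and leaving out each array; normexp with differences under -50 set to -50 was added after the data were seen. P-values measure the spread between arrays within groups, as a moderated estimate for each gene that all groups share. A group with a wide spread therefore also widens the SE of comparisons it is not part of.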

Additional observations from a re-analysis of the deposited data

Results flagged for a closer look

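Single arrays stood apart from the other 3 of their group in 14 of 164 groups examined, over 41 named genes, by Dixon's test; chance flags about 1 in 20 groups. Replicate 4 was high for Hsp90aa1 (6.85) and Hspa9 (4.55) among naive resting arrays and for Hsp90ab1 (6.96), Hspa14 (5.16) and Hspa4l (1.02) among memory resting arrays. Hsp90ab1 was low on naive resting replicate 1 (6.65). Memory stimulated replicate 3 was low for Cct6a (3.36) and Dnajc1 (3.68), and memory stimulated replicate 2 was low for Dnajb13 (-6.40) and high for Hspb9 (-3.17). Among naive stimulated arrays, replicate 1 was low for Dnajb9 (2.94) and high for Dnajc14 (0.65), replicate 2 was high for Dnajc6 (-4.31) and replicate 4 was low for Hspb6 (-6.66).

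The memory response differed from the naive response for 4 genes in the interaction test, by -2.96 for Dnajb8, -1.30 for Hspb9, -1.34 for Hspa12b and 1.35 for Hspa1l.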

How the results depend on the processing

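Of the gene results recomputed under the alternatives, 4641 kept direction and side of the threshold, 119 lost the call, 77 gained one and 17 reversed; 85 of 96 calls of named chaperones held in all 16 fits without 1 array. Leaving out 1 array gave 49 to 52 chaperones called in the naive response, 53 to 58 in the memory response, 9 to 14 after stimulation, 9 to 18 at rest and 3 to 7 in the interaction. In the same order of comparisons it gave 24 to 25, 21 to 23, 2 to 4, 2 to 5 and 1 to 4 co-chaperones, 16 to 18, 15 to 18, 1 to 6, 2 to 4 and 1 to 3 ER folding genes, and 15 to 16, 14 to 16, 0 to 2, 1 to 3 and 3 to 4 heat shock factor and mitochondrial genes. With every probe on its own, 89 member probes were called in the naive response, 98 in the memory response and 17 after stimulation; for co-chaperones 43, 40 and 4, with 8 at rest; for ER folding 29, 31 and 7, with 5 at rest and 4 in the interaction; for the mitochondrial list 26, 26 and 2. With normexp, upset by 33 spots of bright local background on 3 arrays, 0 chaperones were called after stimulation, 0 at rest and 0 in the interaction; co-chaperones gave 15 (naive), 1 (stimulated), 0 (rest) and 1 (interaction), ER folding 11 (memory), 0 (stimulated), 1 (rest) and 0 (interaction), and the mitochondrial list 0 (stimulated), 0 (rest) and 1 (interaction). The replicate block gave 10 interaction calls among chaperones, 5 stimulated and 7 interaction calls among co-chaperones, and 7 stimulated and 6 resting calls in ER folding; it gave 20 chaperones at rest, against 14 without it. Under the block the interaction passed for Hspa5 (adjusted p = 0.0117), Hsp90aa1 (adjusted p = 0.0276) and Hspa9 (adjusted p = 0.0278), and the Dnajb8 response in memory (-1.53, adjusted p = 0.00767) and naive cells (1.43, adjusted p = 0.0117). The floored normexp gave 2 stimulated, 4 resting and 6 interaction calls in the mitochondrial list, and the authors' values gave 2, 4 and 5, with 4 stimulated co-chaperones. Fits on the compared groups alone gave 3 resting co-chaperones and 1 resting mitochondrial gene, quantile normalization 1 resting gene of that list, and no filter 1 co-chaperone interaction. Reversals under normexp were Dnajb13 naive 0.16 and memory 0.90, Dnajc6 memory 1.36, Hspa12b memory 1.24, stimulated 0.59 and interaction 0.49, Hspb2 naive 0.23, memory 1.20 and stimulated 0.76, Hspb6 naive 0.30 and memory 1.24, and Hspb9 memory 0.61, stimulated 0.40 and interaction 0.12. Floored, Hspb2 memory was 0.0020 and Hspb6 memory 0.024, and in the authors' table Hsp90b1 memory was -0.0036. Apart from the normexp spots, the cause was not tested. The slide as a block was not run, since each slide held 1 group. Genes near background have the least certain sizes. With every probe on its own the counts are of probes, not genes. Where a count under another setting, or without an array, lacks the share of all genes, it shows only how the calls moved. Such a count is no result about the chaperones or their partners.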
